A study of Schmidtea mediterranea with 40 samples.

Results

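In embryos of the planarian flatworm Schmidtea mediterranea, 51 of 35262 measured transcripts had a level that was highest at Stage 6 (S6), nearly absent at Stage 4 (S4) and no more than 50% of the S6 level by Stage 8 (S8). They were chosen from the mean RPKM (reads scaled for transcript length and sequencing depth) of the 4 libraries of each group. The S6 mean had to be the highest of the 8 means from yolk (Y) to S8 and at least 5 RPKM, the S4 mean at most 0.1 of it and the S8 mean at most 0.5 of it. An S6 mean of at least 5 RPKM was found for 8421 transcripts, and S6 was the highest of the 8 groups for 839 of these. The limit on S4 left 271 and the limit on S8 left the 51, so a limit of 200 on their number was not reached. Because the values that define the peak chose the transcripts, every statement about Y to S8 is a description with no test.

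The series holds 40 poly(A) RNA-Seq libraries in 10 groups of 4. The Y libraries were made from capsule contents without a visible embryo, and the S2, S3, S4, S5, S6, S7 and S8 libraries each from 1 whole embryo of the sexual biotype, taken 2, 3, 4, 6, 9, 10 and 14 days after the egg capsule was laid. The sample labels give day 0 for Y, whereas the paper used capsules of an age between those of S5 and S6. Y is therefore not read as a time before S2. The adult groups were virgin, sexually mature hermaphrodites (SX) and the asexual line C4 (CIW4), a clonal line propagated by amputation. Embryos came from an outbred colony and received no treatment. They were taken into the library step from a larger collection by RNA quality, RNA yield, size and morphology. Total RNA input was 100 ng for S2 and S3 and 500 ng for the other groups. The SX libraries were run together in a lane of a later sequencer model, whereas each lane of the other groups held 1 replicate of every group, so biotype and sequencing run cannot be told apart between SX and C4. In whole embryos and whole worms, fewer cells of a type and less RNA per cell cannot be told apart.

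Planarian embryos first build a temporary pharynx and a provisional gut with which they swallow yolk. They then flatten, lengthen, and replace these organs with the definitive pharynx, gut, eyes, nervous system, excretory protonephridia and ciliated epidermis of the adult. The definitive organs begin to form while the temporary ones are still present, and regulators of eye, nerve and excretory progenitors are active in the same tissue mass as dividing, piwi-1-expressing cells.

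The S6 libraries held 8445501 to 17479851 reads on transcripts, and the other libraries 5732627 to 16985603. Stage markers varied within the early groups, as the summed RPKM of 4 temporary pharynx transcripts (VAL-like, netrin-like, MPEG1-like-1 and MPEG1-like-2) was 15.6 to 687 at S2, 49.8 to 684 at S3 and 630.3 to 1170 at S4. The low sums were those of S2 replicates 3 (93.6) and 4 (15.6) and S3 replicate 3 (49.8), where VAL-like was at 1.66, 1.30 and 1.165 RPKM. VAL-like carried most of the sum in the other S2 to S4 embryos. In S2 replicate 3, MPEG1-like-1 (39.3) and MPEG1-like-2 (36.5) were above S2 replicate 1 (27.8 and 19.6), while netrin-like was below it (16.2 against 31.1). From S3 to S4 the means of MPEG1-like-1 and MPEG1-like-2 fell, from 47.2 to 16.1 and from 34.4 to 5.95. The pharynx sum was 52.7 to 242 in the S5 embryos, 2.21 to 33.7 at S6 and at most 2.00 in every S7 and S8 embryo, with netrin-like and MPEG1-like-2 at 0 in single S6 embryos. The summed RPKM of 4 embryonic gut transcripts (CTSL-like, a pair of LYAG-like transcripts and MPEG1-like-3) was 655 to 878 at S5, 185 to 597 at S6, 2.24 to 199 at S7 and 2.06 to 2.70 at S8, so that S7 replicate 2 (199) was above S6 replicate 3 (185). The epidermal progenitor marker prog-1 stood at 76.6 ± 41.4 RPKM (SD, n = 4) at S5 and 536 ± 114 at S6.

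Single embryos of a stage did not carry the 51 transcripts at one level. Expressed as a percent of each transcript's S6 mean, the median over the 51 was 102, 106, 76.5 and 106% in the S6 embryos (replicates 1 to 4), 12.1, 29.0, 72.3 and 33.1% at S5, and 49.5, 75.7, 39.7 and 43.3% at S7. S5 replicate 3 held the highest S5 value for 45 of the 51 transcripts, S7 replicate 2 the highest S7 value for 45, and S6 replicate 3 the lowest S6 value for 32. S6 replicate 3 also had the lowest sums of pharynx markers (2.21 RPKM) and of embryonic gut markers (185) of its group. The gut sum was carried by CTSL-like (149 RPKM in that embryo), whereas the LYAG-like pair (8.30 and 17.1) were second highest there of the S6 embryos. The S7 embryo with the highest member level, replicate 2, had an embryonic gut sum of 199 RPKM against 2.24 to 34.9 in the other S7 embryos. S5 replicate 1, where 46 of the 51 had their lowest S5 value, had prog-1 at 18.8 RPKM against 78.4 to 116 in the other S5 embryos, and S5 replicate 3 had piwi-1 at 423 RPKM against 522 to 781. The part of these differences between embryos in the profiles was not tested. At S8 the medians lay between 35.5 and 39.7%, in C4 between 18.0 and 29.9%, and in SX between 22.1 and 25.1%.

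**Figure D1:**
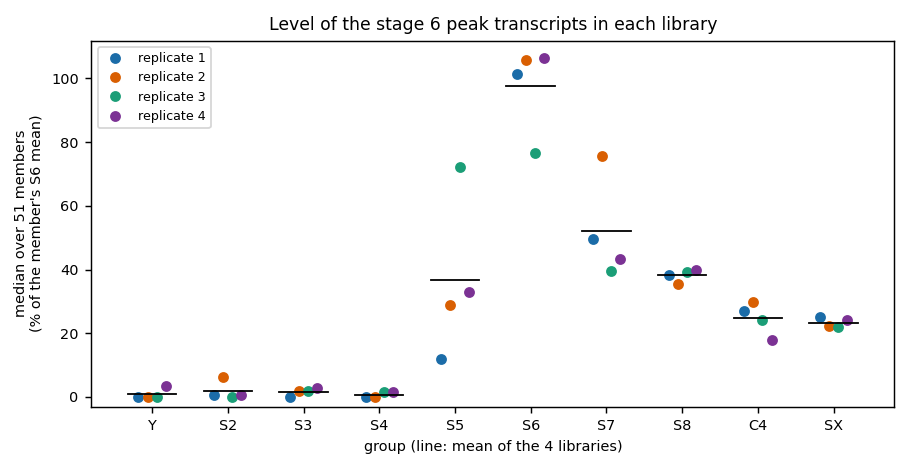
Median level of the 51 transcripts in each of the 40 libraries, as a percent of each transcript's S6 mean (vertical axis), by group (horizontal axis); points are libraries coloured by replicate number and lines are the means of the 4. S5 replicate 3 (72.3%) and S7 replicate 2 (75.7%) stand near S6 replicate 3 (76.5%), while Y to S4 libraries are at or under 6.25%.

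In yolk and in the embryos up to S4 the transcripts were low. The median over the 51 of the group mean, as a percent of S6, was 1.43% in Y, 3.07% at S2, 2.17% at S3 and 1.57% at S4. The same medians over all 8421 transcripts with an S6 mean of at least 5 RPKM were 74.9, 81.9, 92.5 and 99.7%. The rule sets the S4 limit, and for Y, S2 and S3 it only requires a mean below that of S6. A choice for low S4 can also favour low values in the other early groups. Nothing is therefore read from the gap to the 8421. At S5 the median was 38.0% and the range ran from 0 to 99.9%, and at S7 it was 56.4% with a range of 16.5 to 99.0%. Leaving out S5 replicate 3 lowered the S5 median to 24.0%, and leaving out S7 replicate 2 lowered the S7 median to 48.2%. S7 was the second highest group for 31 transcripts and S5 for 17.

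Onset and loss varied from transcript to transcript. The S5 mean was above 0.1 of S6 for 42 transcripts and at or below it for 9 (38 and 13 without S5 replicate 3). The S7 mean was at or under 0.5 of S6 for 19 and above it for 32 (30 and 21 without S7 replicate 2). Only 5 were both at most 0.1 of S6 at S5 and at most 0.5 at S7, the narrowest profiles by these limits. They were the transcripts with a match to protocadherin Fat 2, FAM115A, a sulfotransferase and a leucine-rich repeat protein, and SMED30035537, which has no description. The sulfotransferase match was close to the limit, with an S7 mean of 49.9% of S6. The S8 mean of the leucine-rich repeat match was still 36.3% of S6. All 4 S6 embryos were above all 4 S5 embryos for 26 of the 51 (39 without S5 replicate 3) and above all 4 S7 embryos for 28 (45 without S7 replicate 2). Over the 8421 transcripts these orderings held for 26.4 and 15.8%, and nothing is read from the comparison because the rule selected for it.

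**Figure D2:**
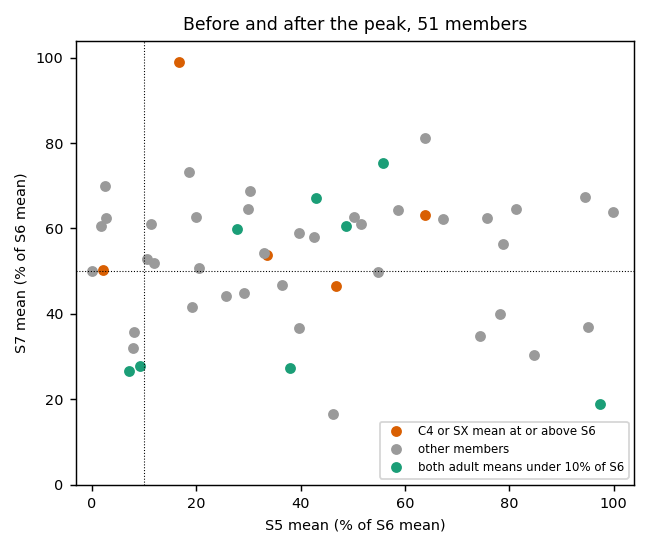
S5 mean (horizontal axis) and S7 mean (vertical axis) of the 51 transcripts, each as a percent of the S6 mean; points are transcripts coloured by their adult level and dotted lines mark 10% at S5 and 50% at S7. The lower left field holds the 5 narrowest profiles, and SMED30006524 lies near the top with an S7 mean at 99.0% of S6.

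Membership depended on how libraries were scaled: without the TMM factors of the deposited values, 70 transcripts met the rule and only 30 of the 51 were among them. For the S8 limit and for S6 being the highest group, transcripts just inside and just outside had much the same share of S6. The gap was wider at the S6 minimum. The lowest S6 means inside were 5.32 RPKM (SMED30007424) and 5.65 (SMED30026516), and the nearest outside were 4.23 (SMED30034765) and 4.17 (SMED30032471). For S8 as a percent of S6, SMED30006932 (49.7%) and SMED30003907 (49.5%) were inside, while SMED30005164 (50.1%) and SMED30008806 (50.3%) were outside. For S4 the nearest inside were SMED30013455 (9.83%) and SMED30026516 (9.41%), and the nearest outside SMED30007802 (11.2%) and SMED30014191 (11.5%). The S6 means of those inside were 5.80 and 5.65 RPKM, and of those outside 20.7 and 149. The S5 mean was 99.9% of S6 in SMED30013455 and the S7 mean 99.0% in SMED30006524, both inside, whereas S5 was above S6 in SMED30031725 (103%) and SMED30002872 (108%), both outside. SMED30005164 is coe, a transcription factor of neural progenitors, whose S6 mean was 9.29 RPKM.

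The spread between S6 embryos was wide for many of the 51. The SD was a median of 20.5% of the S6 mean (range 3.86 to 128%), against 8.97% over all transcripts with an S6 mean of at least 5 RPKM. A choice by the S6 mean can favour transcripts raised in single S6 embryos, and S6 replicate 3 was lowest for 32 of the 51. Nothing is therefore read from this gap. S6 means were 5 to 10 RPKM for 24 transcripts, 10 to 50 for 22 and over 50 for 5. The values rest on 227 (SMED30025846) to 298112 (SMED30003809) reads summed over the 4 S6 embryos, with a median of 1144. The transcripts were a median of 1104 bases long, against 1438 for all with an S6 mean of at least 5 RPKM, and the 26 without any description were shorter still (median 781 bases).

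A BLASTx description was given in the study's tables for 25 of the 51, and 5 had a planarian gene name. Of the 26 without a description, 14 are in those tables and 12 are not, so for the 12 no annotation was used here. By keywords, 5 of the 25 were transcription factors, 4 metabolic enzymes, 4 adhesion or Notch-like proteins, 3 signalling proteins, 2 channels or transporters, 1 a tubulin and 6 others. Roles given below come from the matched proteins of other species and were not shown for the planarian transcripts. Adult expression was noted in the gut for 4, the eye for 2 and the nervous system for 2. The study listed those transcripts because they were enriched at some stage of these embryos, so their stage is not independent evidence.

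Among the transcription factors, the level of soxB-1 (SMED30025778), a SoxB family regulator known in animals for early neural and sensory fates and noted here in the eye, was 6.82, 8.18, 6.95 and 7.17 RPKM in the S6 embryos. It was 4.77, 8.20, 7.70 and 6.88 at S5, 4.45 to 5.52 at S7, 2.95 to 3.72 at S8 and 0 in all 4 S4 embryos. The S5 and S6 embryos overlapped, and every S7 embryo was below every S6 embryo. The homeobox gene pitx (SMED30009752), which in planarians is needed for serotonergic neurons, had 6.07, 6.27, 6.09 and 5.30 RPKM at S6 against 3.70, 4.49, 5.32 and 5.77 at S5 and 2.36, 3.94, 4.18 and 4.88 at S7. The S5 and S6 embryos again overlapped.

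A further 2 transcription factor matches had adult tissue notes but no planarian name. The transcript with a match to Storkhead-box protein 1 (SMED30030265), a winged-helix protein in mammals, is noted in the adult eye and was at 28.3, 30.5, 30.2 and 30.9 RPKM in the S6 embryos, the narrowest spread of the 51 (SD 3.86% of the mean). At S5 it was at 1.19, 3.49, 6.56 and 2.31, at S7 at 16.9, 25.9, 15.0 and 15.5 and at S8 at 9.60 to 12.7, so all S6 embryos lay above all others. A zinc finger protein (SMED30021702), noted as pan-neural, had 8.05 to 10.3 RPKM at S6, 5.09 to 7.89 at S5, 4.10 to 7.10 at S7 and 2.51 to 4.22 at S8.

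In a chosen list of 47 developmental regulators named in the study's tables, S6 was the highest group for 25, S5 for 9, Y for 4, S8 for 4, S4 for 3 and S7 for 2. The list is not complete, and its counts hold for these 47 only. For example, it lacks eya and dlx, which the paper names among transcripts enriched at S5 or S6. Among all transcripts with an S6 mean of at least 5 RPKM, S6 was the highest group for 839 of 8421. The list has no such minimum. Its names come from tables that hold transcripts enriched at some stage of these embryos, so their stage is not independent evidence. Of the 25 regulators highest at S6, 12 had an S6 mean of at least 5 RPKM, 9 of these also met the limit on S4 and 3 the limit on S8, soxB-1 and pitx among them. The S8 means of the other 9 were 50.1% (coe) to 81.4% (abdBb) of S6. Their S6 means reached 22.1 RPKM for soxP-3 and 19.6 for pou6*-2. In soxB-1 and pitx the S8 mean was 47.3 and 48.1% of S6.

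**Figure D3:**
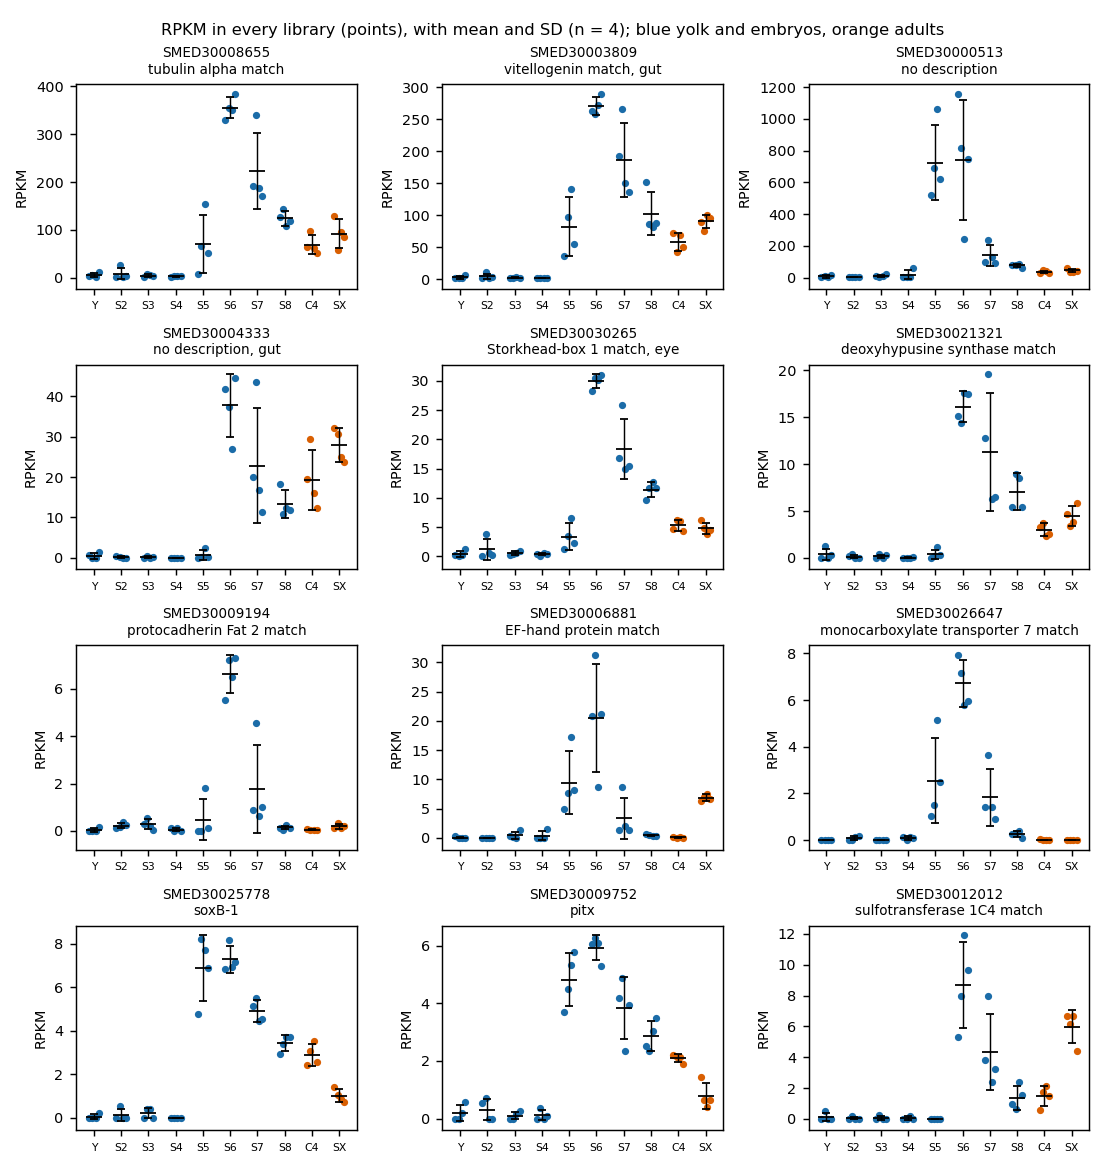
RPKM (vertical axes, linear) of 12 of the transcripts in each library by group (horizontal axes), with the mean and SD of the 4 libraries; blue points are yolk and embryos, orange points adults. In every panel the S6 mean is the highest of Y to S8, and the adult points lie at or near 0 for the monocarboxylate transporter 7 and protocadherin Fat 2 matches and reach 32.1 RPKM, within the S6 range, for SMED30004333.

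Of the 4 transcripts noted in the adult gut, the most abundant was SMED30003809, a match to vitellogenin, the yolk lipoprotein of egg-laying animals. It had 263, 258, 271 and 289.6 RPKM in the S6 embryos, 35.7, 97.2, 140.1 and 55.4 at S5 and 193, 266, 150.1 and 136 at S7. Only S7 replicate 2 reached the S6 range. At S4 it was at 1.01 to 2.14 RPKM and in the yolk libraries at 1.68, 2.06, 1.40 and 6.71. SMED30004333, which has no BLASTx description, had 41.8, 37.4, 27.0 and 44.6 RPKM at S6 and was at 0 in all 4 S4 embryos. Its S5 embryos had 0, 0.159, 2.43 and 0.161 RPKM, and its S7 embryos 19.9, 43.5, 16.7 and 11.2. Here too S7 replicate 2 stood within the S6 range.

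The other gut transcripts were Notch-like, that is, they matched proteins with the EGF-type repeats of the Notch receptor. SMED30006022 had 15.9, 15.6, 10.1 and 15.8 RPKM at S6, 0.283 to 10.1 at S5 and 5.55 to 8.15 at S7. SMED30023473, which matched a Notch 4 homolog and plasminogen of a tapeworm, had 43.4, 49.2, 25.8 and 39.6 at S6 and 18.5, 39.1, 54.7 and 38.0 at S5, so that its S5 and S6 embryos overlapped. In both transcripts S6 replicate 3 was the lowest S6 embryo, as it was for the embryonic gut markers CTSL-like and MPEG1-like-3 but not for the LYAG-like pair.

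The transcript with the highest S6 mean, SMED30000513, is 366 bases long and has no description. Its S6 embryos had 1159, 816, 243 and 749 RPKM and its S5 embryos 522, 688, 1062 and 620.4, whereas its S7 embryos had 101, 239, 128 and 89.9. The S5 mean was 97.5% of the S6 mean and the embryos of both stages overlapped fully. Its S4 embryos had 3.38, 1.38, 5.38 and 62.9 RPKM, and its level in the adults was 34.9 ± 8.47 (C4) and 44.7 ± 11.3 (SX; SD, n = 4). S6 replicate 3 had the lowest SMED30000513 value of the S6 embryos, and S7 replicate 2 the highest of the S7 embryos. These embryos also had the lowest S6 and the highest S7 embryonic gut marker sum (185 and 199 RPKM). The highest S6 value of SMED30000513 was in replicate 1 (gut marker sum 354), whereas the highest S6 gut marker sum was in replicate 2 (597). The part of gut marker level in this pattern was not tested.

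A tubulin match was second. SMED30008655 matched tubulin alpha-1 of Drosophila, a subunit of microtubules and cilia, and had 330.3, 355, 351 and 384 RPKM in the S6 embryos. The S5 embryos had 9.11, 67.2, 155 and 52.9, the S7 embryos 191, 340.2, 187 and 170.5 and the S8 embryos 108 to 145. S7 replicate 2 alone entered the S6 range. Tubulins are a family of near-identical genes, and reads that matched a few transcripts equally well were kept, so this level is uncertain between family members. SMED30021791, without description, had a similar profile from S6 on, at 109, 115, 111 and 121 RPKM at S6. Its level was 0.315 to 0.329 of that of SMED30008655 in the S6 embryos, 0.288 to 0.409 in the adults and 0.378 to 1.82 at S5. At S4 it was above SMED30008655, at 5.09 to 13.0 against 2.56 to 4.12 RPKM. SMED30032350 and SMED30008271, both matching partial hypothetical planarian proteins, also had parallel values, with 34.5 to 55.2 and 50.3 to 94.7 RPKM at S6 and a ratio of 0.461 to 0.815 over all embryos from S5 to S8 and all adults. Whether these pairs share sequence could not be checked here.

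The metabolic enzymes included both steps of threonine breakdown to glycine. L-threonine 3-dehydrogenase (SMED30021800), which oxidises threonine in mitochondria, had 8.27, 9.52, 5.96 and 9.73 RPKM at S6, 0, 0.627, 2.85 and 0.493 at S5 and 3.03 to 5.98 at S7. 2-Amino-3-ketobutyrate coenzyme A ligase (SMED30022595), which splits the product of the first enzyme, had 39.9, 36.9, 29.2 and 46.5 at S6, 10.1 to 22.6 at S5 and 15.5 to 33.3 at S7. Among the embryos, S6 values of the first enzyme lay above all S5 values and overlapped only with S7 replicate 2, and the same was true of the second. The C4 libraries of the first enzyme (4.53 to 8.81 RPKM) also overlapped its S6 embryos.

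A match to deoxyhypusine synthase (SMED30021321), the enzyme that makes the hypusine residue of translation factor eIF5A, had 15.1, 14.4, 17.6 and 17.5 RPKM at S6. It was at 0, 0.196, 1.11 and 0.265 RPKM at S5, a mean of 2.44% of S6, and at 12.8, 19.6, 6.29 and 6.52 at S7, where replicates 1 and 2 were well above the other 2. A sulfotransferase 1C4 match (SMED30012012), of a family that adds sulfate to small molecules in mammals, was at 0 in all 4 S5 embryos and at 5.32, 7.95, 11.9 and 9.64 at S6. Its S7 embryos had 3.82, 7.95, 2.42 and 3.21 RPKM.

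The protocadherin Fat 2 and FAM115A matches had S5 means of 7.15 and 9.25% of S6 and S7 means of 26.5 and 27.7%. Both were nearly missing from the adults. The protocadherin Fat 2 match (SMED30009194), of a family of large adhesion proteins, had 5.55, 7.22, 6.52 and 7.29 RPKM at S6. At S5 it was at 0, 0, 1.79 and 0.112 RPKM, at S7 at 0.869, 4.57, 0.607 and 1.01, and at S8 at 0.0543 to 0.242. The S6 embryos were above all other libraries, and the values at S5 and S7 came mostly from S5 replicate 3 and S7 replicate 2. The FAM115A match (SMED30022811) had 7.97, 8.79, 5.93 and 8.31 RPKM at S6 with the same order elsewhere, namely 0.0458, 0.280, 2.14 and 0.400 at S5 and 1.47, 4.38, 1.09 and 1.66 at S7. Its adult libraries had 0.00950 to 0.151 RPKM.

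The monocarboxylate transporter 7 match (SMED30026647), of a family that carries lactate, pyruvate and related acids, had 7.95, 7.15, 5.80 and 5.94 RPKM at S6, 1.05 to 5.15 at S5 and 0.890 to 3.63 at S7. No read of it was found in the 4 SX libraries, which allows up to 0.0171 RPKM at 3 reads over the group, and 1 read was found in the 4 C4 libraries. The EF-hand calcium-binding protein match (SMED30006881) had 20.8, 31.3, 8.66 and 21.2 RPKM at S6 and 0.331 to 0.594 at S8, the largest S6 to S8 ratio among the 51 with 0.1 RPKM added to both. Its S5 embryos had 4.91, 7.64, 17.2 and 8.11, which overlap S6 replicate 3, and its S7 embryos 1.43, 8.64, 2.09 and 1.33.

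Among the other described transcripts, the match to a gamma-1 subunit of voltage-dependent calcium channels (SMED30012440) had 19.8, 29.2, 26.9 and 29.8 RPKM at S6, 0.364 to 7.33 at S5 and 12.6 to 16.5 at S7. SPRY domain containing SOCS box protein-1 (SMED30025986), of a family that in mammals recruits targets to a ubiquitin ligase, had 22.0, 28.6, 20.1 and 26.2 at S6 and 9.54, 20.6, 29.1 and 17.0 at S5, with overlap. The leucine-rich repeat protein SMED30035118, which bears the planarian name of a synaptic adhesion protein family, had 15.5, 12.6, 7.30 and 13.0 RPKM at S6 and 5.26 to 6.93 at S7. The match to lipoma HMGIC fusion partner (SMED30003907), noted as pan-neural, had 8.40 to 9.75 RPKM at S6 and 0.400 to 3.29 at S5. A match to a plant leucine-rich repeat protein (SMED30020334), among the narrowest profiles above, was at 6.98 to 10.0 at S6 and 0.297 to 1.37 at S5. SMED30009361, a match to a hypothetical protein of a limpet, had 6.74, 3.39, 8.51 and 6.80 RPKM at S6 and 1.11 to 4.59 at S5, with overlap.

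The 26 transcripts without a description had S6 means of 5.32 to 742 RPKM (median 11.05). Their S5 means were 1.83 to 99.9% of S6 (median 38.1%) and their S7 means 18.8 to 99.0% (median 53.9%). Among them, SMED30006524 did not have a stable peak. Its S6 embryos had 6.16, 0.976, 0.596 and 18.9 RPKM and its S7 embryos 0.954, 1.88, 1.37 and 22.2. The level was also split in SX, at 0.0382, 13.5, 0.598 and 13.0. High values thus stood in single worms of several groups. Without S7 replicate 2 its S7 mean was 8.17 RPKM against 6.67 at S6, and it was the 1 transcript of the 51 that no longer met the rule.

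In a separate reading, the rule was applied to 3 replicates of each group and the libraries of the fourth replicate number were then read. With replicate 1 held out, S6 was the highest of the 8 held-out libraries for all 36 transcripts chosen, against 9.2% of all transcripts with an S6 mean of at least 5 RPKM in the other 3 replicates. With replicate 2 held out it was highest for 30 of 42 (background 7.74%), with replicate 3 for 34 of 62 (background 9.89%) and with replicate 4 for 43 of 49 (background 10.4%). The held-out libraries met all the limits of the rule for 26, 26, 14 and 28 of these. Members made up 35, 38, 48 and 43 of the transcripts chosen, so the readings largely repeat the same transcripts. The background transcripts were not chosen for a peak at S6, so nothing is read from the gap to them. The counts only describe how often the peak recurred in libraries left out of the choice, with no test. Replicate number 3 holds the high S5 embryo and the low S6 embryo described above.

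The rule did not use the adult groups, but a share of S6 has the selected S6 mean as its denominator, so it is in part fixed by the choice of transcripts. The median level over the 51 was 22.3% of S6 in C4 and 26.0% in SX, against 98.9 and 88.2% over the 8421 transcripts with an S6 mean of at least 5 RPKM. Both adult means were under 0.1 of S6 for 8 of the 51 (15.7%, against 1.02% of the 8421), and at least 1 was at or above S6 for 5 (9.80%, against 56.5%). The 8 were SMED30009194, SMED30026647, SMED30022811, SMED30000513, SMED30025846, SMED30015832, SMED30009361 and SMED30022976. These shares are given as a description, with no test. The C4 mean was above the S8 mean for 14 and the SX mean for 15.

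The 5 that reached or passed their S6 mean in an adult group are without a description, and SMED30005747, SMED30006524 and SMED30026516 are not in the study's tables. SMED30005747 had 20.6, 29.8, 15.4 and 23.9 RPKM in the S6 embryos, 60.5, 64.5, 37.8 and 54.0 in C4 and 34.8, 92.1, 95.4 and 125 in SX, so every adult was above every S6 embryo. SMED30025598 had 5.42 to 9.03 at S6, 11.97 to 14.7 in C4 and 6.27 to 15.2 in SX. For SMED30026516 the C4 libraries (5.51 to 7.75) overlapped the S6 embryos (5.06 to 6.45). The remaining pair were SMED30006524, described above, and SMED30001155, which was high in SX.

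The comparison of SX with C4 asks whether the transcripts differ between sexual and asexual adults. It was made with limma on log2(RPKM + 0.1) over 28714 transcripts, with a call at a Benjamini-Hochberg adjusted p under 0.05 and a change of at least 2-fold. Of the 48 members tested, 6 were higher in SX (12.5%, against 19% of all transcripts) and 11 lower (22.9%, against 13.4%). Only 3 were called higher and 6 lower with a pseudocount of 1 RPKM, and 5 higher and 4 lower in a fit over all 40 samples. Quantile normalization, which moves the median of all transcripts from -0.02 to -0.32 on the log2 scale, gave 4 higher and 14 lower. The other 3 members were too low in adults to test.

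The highest in SX was the EF-hand protein match SMED30006881. Its SX libraries had 6.26, 7.00, 7.58 and 6.68 RPKM and its C4 libraries 0.117, 0.0490, 0.141 and 0.0578, a log2 fold change of 5.22 ± 0.23 (SE, n = 4; limma adjusted p = 1.8e-08). SMED30001155, with no description, had 24.7, 57.9, 55.6 and 47.3 RPKM in SX and 0.943 to 2.05 in C4 (log2 fold change 4.97 ± 0.29, limma adjusted p = 1.65e-07). The groups did not overlap for either transcript. SMED30001155 was at 4.04 to 7.66 RPKM in the S6 embryos, so that its SX mean was 759.7% of the S6 mean, the highest such share among the 51.

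The sulfotransferase 1C4 match SMED30012012 was also higher in SX, at 4.41 to 6.69 against 0.605 to 2.11 RPKM (log2 fold change 2.04 ± 0.32, limma adjusted p = 0.000466). SMED30007424 had 66 reads in SX against 2 in C4 (2.77 ± 0.37, limma adjusted p = 0.000131), and SMED30022976 220 against 48 (1.70 ± 0.34, limma adjusted p = 0.00213). With a pseudocount of 1 RPKM neither SMED30007424 (0.79) nor SMED30022976 (0.61) reached the 2-fold limit, and SMED30022976 was also lost with quantile normalization (adjusted p = 0.0521). SMED30024334 was called higher (2.48 ± 0.80, limma adjusted p = 0.0254), but its SX libraries had 13.5, 2.52, 0.485 and 1.43 RPKM against 0.217 to 0.766 in C4. Its groups overlapped, and its call was lost in 4 of the 8 fits that left out a library, with adjusted p of 0.0601, 0.0562 and 0.0574 without C4 replicates 1, 2 and 3 and 0.0553 without SX replicate 2. It was also lost with a pseudocount of 1 RPKM, without a filter, over all 40 samples, with quantile normalization and with voom on rebuilt reads (adjusted p of 0.0514 to 0.0813).

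A pan-neural zinc finger and a calcium channel subunit match were among those lower in SX. The pan-neural zinc finger SMED30021702 had 0.331 to 0.828 RPKM in SX and 2.35 to 3.14 in C4, a log2 fold change of -2.13 ± 0.26 (SE, n = 4; limma adjusted p = 7.04e-05). The calcium channel subunit match SMED30012440 had 4.86, 2.76, 2.42 and 2.24 RPKM in SX against 11.8, 15.2, 11.1 and 10.6 in C4 (-2.01 ± 0.23, limma adjusted p = 4.7e-05). In both, every SX library was below every C4 library. SMED30012440 missed the threshold in the fit over all 40 samples (adjusted p = 0.0540).

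Of the regulators, soxB-1 (SMED30025778) had 0.729 to 1.41 RPKM in SX and 2.41 to 3.52 in C4 (-1.45 ± 0.23, limma adjusted p = 0.000463), and pitx (SMED30009752) 0.411 to 1.44 against 1.90 to 2.22 (-1.43 ± 0.31, limma adjusted p = 0.00333). The groups did not overlap for either gene. With a pseudocount of 1 RPKM both were under the 2-fold limit (-0.95 for soxB-1 and -0.83 for pitx), and pitx missed the threshold in the fit over all 40 samples (adjusted p = 0.0673). Over the chosen list of 47 regulators, 46 were tested, of which 5 were higher and 15 lower in SX, where 19% of all transcripts were higher and 13.4% lower. Among the 26 pan-neural transcripts of the study's tables, 1 was higher and 18 lower, and among the 37 eye transcripts 1 and 17. The lists share transcripts, so their counts are not independent of each other. For example, SMED30000242 is on the eye and pan-neural lists, and coe is on the regulator and pan-neural lists. The 64 gut transcripts had 0 higher and 8 lower in SX, the 22 epidermal 0 and 5, the 11 muscle 1 and 4, and the 6 protonephridial 0 and 0, to be read against the same 19 and 13.4%.

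The lowest in SX was SMED30035537 (-2.44 ± 0.50, limma adjusted p = 0.00245), at 0.0821 to 0.802 RPKM against 1.01 to 3.01, followed after SMED30021702 by SMED30006932 (-2.05 ± 0.38, limma adjusted p = 0.00129), at 0.122 to 0.595 against 1.26 to 2.18 (-0.97 with a pseudocount of 1 RPKM). Neither has a description. L-threonine 3-dehydrogenase (SMED30021800) was lower, at 2.04 to 3.56 RPKM in SX and 4.53 to 8.81 in C4 (-1.25 ± 0.23, limma adjusted p = 0.00133), a call lost in the fit over all 40 samples (adjusted p = 0.153). The ligase of the next step (SMED30022595) was at 18.1 to 21.7 in SX and 13.6 to 23.7 in C4, with overlap (0.22 ± 0.16, limma adjusted p = 0.275). The pan-neural SMED30003907 was lower by -1.10 ± 0.19 (limma adjusted p = 0.000708), and without C4 replicate 2, which had 6.81 RPKM against 4.16 to 4.45, it fell below the 2-fold limit at -0.93, as it did with a pseudocount of 1 RPKM (-0.86), and its adjusted p was 0.207 over all 40 samples. SMED30025846 rested on 8 and 22 reads and lost its call without C4 replicate 3 or SX replicate 2, with a pseudocount of 1 RPKM, over all 40 samples and with voom on rebuilt reads. SMED30004412 and SMED30026516 were lower by -1.53 ± 0.32 and -1.32 ± 0.27, and both missed the threshold over all 40 samples (adjusted p = 0.0729 and 0.0909).

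Of the abundant gut and cytoskeletal transcripts, none passed the 2-fold limit. The vitellogenin match SMED30003809 was at 75.7 to 100.2 RPKM in SX and 41.5 to 72.0 in C4, without overlap (log2 fold change 0.67 ± 0.18, limma adjusted p = 0.0125). The tubulin match SMED30008655 was at 57.7 to 129.6 and 51.6 to 98.0 (0.39 ± 0.26, limma adjusted p = 0.229), and the gut transcript SMED30004333 at 23.7 to 32.1 and 12.3 to 29.5 (0.59 ± 0.24, limma adjusted p = 0.0587).

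**Figure D4:**
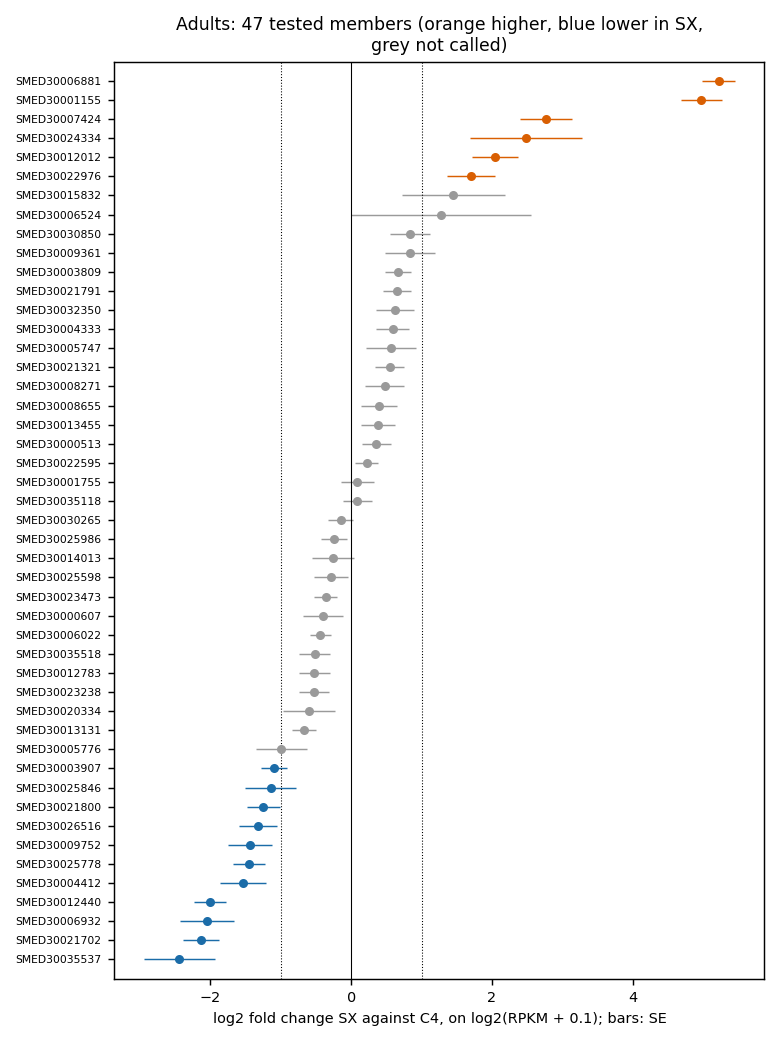
Log2 fold change of SX against C4 on log2(RPKM + 0.1) (horizontal axis) for 47 of the 48 tested transcripts (vertical axis), with the SE of the limma fit; orange points were called higher, blue points lower and grey points neither, and dotted lines mark a 2-fold change. The 2 highest, SMED30006881 (5.22) and SMED30001155 (4.97), stand apart from the rest, which lie between -2.44 and 2.77.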

How the data were processed

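The authors made poly(A) libraries, sequenced single-end reads, demultiplexed them with CASAVA 1.8.2 and aligned them with Bowtie to an assembled transcriptome, keeping reads with a limited number of equal matches. They deposited 1 table of RPKM values for 35262 transcripts, scaled by TMM factors (trimmed mean of M values). No column of the table was left unused (0). Dividing out lengths and library sizes gave whole reads for 100% of the values within 0.001 reads, and these reads gave the depths.

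Group means were taken over the 4 libraries, and the rule for the peak was applied to them. Members and lists were chosen with earlier results of these data known. SX and C4 were compared in R 4.3.3 by limma 3.58.1, whose variances were moderated along a mean trend, using log2(RPKM + 0.1) of the transcripts whose RPKM summed to at least 1 over the 8 adults, so a fold change understates that of low transcripts. Replicates are separate embryos or worms. On simulated data with 28614 transcripts tested, 41.1% of the 2-fold and 100% of the 4-fold and 8-fold changes were recovered in this comparison, with 6 false calls. A true 2-fold change lies on the limit for a call. The changes were set only in transcripts with an adult mean of at least 1 RPKM, at a single dispersion of 0.03. Recovery among lower transcripts is therefore not known. Python 3.11.15 was used for the rest.

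Named transcripts were the 8 with the highest S6 mean, the 8 described ones with the largest ratio of S6 to S8, all with a planarian name or an adult tissue note, the 4 highest and 4 lowest called in SX against C4 without overlap, and the 2 nearest each limit on either side. Others were named after their values were seen. Of the members, 1 is counted but its values are not reported here. Sequences of the transcripts are not shown here. Intervals were not given for single values, and a limit at 0 reads covers counting error only.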

Additional observations from a re-analysis of the deposited data

Results flagged for a closer look

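In groups of 4 libraries, 18 of 243 sets of values (7.41%) had 1 library far from the other 3 for their range, where chance gives about 1 in 20. The median over the 51 transcripts was far off in S6 replicate 3 (76.5% against 102 to 106%) and in S2 replicate 2 (6.25% against 0 to 0.677%). S2 replicate 2 also had prog-1 at 50.5 RPKM against 3.08 to 7.29 in the other S2 libraries. S6 replicate 3 was low for SMED30006022 (10.1 against 15.6 to 15.9 RPKM) and SMED30001755 (19.2 against 26.9 to 28.3).

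S7 replicate 2 was high for SMED30006881 (8.64 against 1.33 to 2.09 RPKM), SMED30009194 (4.57 against 0.607 to 1.01) and SMED30008655 (340.2 against 170.5 to 191). S5 replicate 3 was high for SMED30009194 (1.79 against 0 to 0.112), SMED30022811 (2.14 against 0.0458 to 0.400), SMED30004333 (2.43 against 0 to 0.161) and SMED30021702 (7.89 against 5.09 to 5.53). S7 replicate 4 was high for SMED30006524 (22.2 against 0.954 to 1.88).

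In the adults, SX replicate 1 was high for SMED30024334 (13.5 against 0.485 to 2.52 RPKM), SMED30025986 (7.27 against 5.00 to 5.38) and SMED30003907 (2.65 against 2.02 to 2.12). C4 replicate 2 was high for SMED30023238 (8.12 against 4.66 to 4.76) and SMED30003907 (6.81 against 4.16 to 4.45), and C4 replicate 3 was low for SMED30025598 (11.97 against 14.2 to 14.7). What set these libraries apart was not tested.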

How the results depend on the processing

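The number of transcripts that met the rule was 51 and depended on its limits, with 27 at a minimum of 10 RPKM, 135 at a minimum of 1 RPKM and 11 with S8 at most 0.25 of S6. Without the TMM factors 70 met it, but only 30 of the 51 were among them. Leaving out a replicate number gave 36 to 62, and leaving out S5 replicate 3, S6 replicate 3 or S7 replicate 2 alone, or all 3, which was chosen after seeing the data, gave 50 to 61. The S5 median over the members was 23.3 to 46.8% of S6 without a replicate number and 24.5% without the TMM factors, and the S7 median 49.0 to 59.3% without a replicate number. The SX median was 22.4% with the median of replicates in place of the mean and 22.6 to 26.8% without a replicate number, or without S6 replicate 3 24.3%.

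Members higher in SX than in C4 numbered 3 with a pseudocount of 1 RPKM and 3 with a filter of at least 1 RPKM in at least 4 adults. Members lower numbered 6 with a pseudocount of 1 RPKM and 4 in a fit over all 40 samples. Leaving out 1 adult library gave 5 to 7 higher and 10 to 12 lower. Over all transcripts, the pseudocount of 1 RPKM gave 3055 higher and 1585 lower in place of 5461 and 3859, and quantile normalization 3859 and 6428. With the replicate block in the adult fit there were 6 higher and 11 lower. Same-numbered SX and C4 libraries did not deviate together (correlations of -0.0512 to -0.0227), so the samples share only a number, and no call of a named member changed with the block. Among 26 named members, SMED30035118 (0.09) changed sign, to -0.23 with quantile normalization, and ranged from -0.052 to 0.23 without 1 adult library, with no call in any of these. SMED30020334 passed with quantile normalization (-1.17), and 9 of the 390 values lost a call. Values resting on few reads, such as SMED30025846, are limited by depth.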
